A study of Mus musculus with 6 samples.

Results

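ATF4 targets and the enzymes of serine and glycine synthesis were followed in cultured mouse nephrogenic stroma as a list of 36 genes given by name. Each symbol was looked up in the deposited table of 78409 genes, and 36 of 36 were found and passed the filter on low counts. Ddit3 had 2 entries, and the one with the higher total was used. The list was drawn up with earlier results of these data known, so that the members were not chosen blind to their direction.

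The cells were nephrogenic stroma, the interstitial tissue around the forming nephrons, from wild-type CD1 mouse fetuses at embryonic day 18. They were sorted on the surface receptor PDGFRa from pooled kidneys and cultured for 18 h in serum-containing medium, and all had met the ROCK kinase inhibitor Y27632 in the sorting medium. Each litter is a pool, so that no single animal was measured. High adhesion cells (3 libraries) sat on coverslips coated with the silicone PDMS and exposed to bovine fibronectin at 50000 ng/mL, and low adhesion cells (3 libraries) on the same coating exposed to 500 ng/mL. The 3 litters each contributed a matched pair of libraries, and the comparison asks how the amount of adhesive fibronectin alters transcript levels within a litter.

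Cells that run short of amino acids, accumulate unfolded protein or suffer other stresses phosphorylate the translation factor eIF2, which slows translation in general and lets the messenger RNA of ATF4 be translated more. ATF4 is a transcription factor that pairs with C/EBP proteins and raises genes for amino acid synthesis, amino acid import and the charging of transfer RNA, a programme called the integrated stress response. Growth signals acting through the kinase complex mTORC1 can also raise ATF4 without eIF2 phosphorylation. Serine and glycine made under this programme feed folate-dependent reactions in mitochondria that serve nucleotide synthesis and redox balance. RNA levels report neither eIF2 phosphorylation nor ATF4 protein.

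The libraries held 12596249 to 13508257 counts, so that 1 count stood for 0.074 to 0.0794 CPM (a library's counts scaled to a common total, as deposited) and 3 counts for 0.222 to 0.238 CPM, a floor that covers counting error only. The stromal markers Pdgfra (16.95 to 26.46 CPM at high and 26.6 to 33.6 CPM at low adhesion) and Foxd1 (157 to 177 and 182 to 216 CPM) were present. Over all 14834 tested genes 4.71% rose and 4.83% fell (edgeR adjusted p under 0.05). Of 12 stromal markers tested 10 fell at high adhesion, with log2 fold changes of -0.67 (Fgf7) to -0.18 (Col1a2), and Vim rose (0.12). The summed level of the 12 was 5630 to 6410 CPM at high and 5750 to 6550 CPM at low adhesion. Vim was the largest part of it, at 3301 to 4052 and 3053 to 3600 CPM, so that the sum does not show the level of the others. Of 11 epithelial markers 8 were tested and 4 of these rose (the keratin genes Krt8, Krt18 and Krt19 and the claudin gene Cldn6), with summed levels of 471 to 902 CPM at high and 298 to 598 CPM at low adhesion and Wnt9b at 0. Krt18 was the largest part of this sum, at 327.8 to 735 and 200 to 491.3 CPM, so that the sum does not show the level of the others. Epcam was at 6.75 to 8.06 and 5.58 to 6.38 CPM and did not pass (edgeR adjusted p = 0.100). Of 6 nephron progenitor markers tested Cited1 rose (log2 fold change 0.29), Tmem100 fell (-1.69) and 4 did not pass, Six2 among them at 14.4 to 21.8 CPM at high and 12.8 to 20.3 CPM at low adhesion. Of 6 endothelial markers tested Emcn fell (-0.33) and 5 did not pass, Pecam1 among them at 1.03 to 2.04 and 0.981 to 1.21 CPM. In lists of so few genes a count of 1 is near the share of all tested genes. None of 10 leukocyte markers passed in edgeR, with 3 at an unadjusted p under 0.05 (3250 of all 14834 tested genes). Of the 10, 9 had a log2 fold change below 0, with a median of -0.23. Ptprc, at 0.814 to 1.49 and 0.531 to 1.37 CPM, was the exception in sign. Summed levels at high and low adhesion were 37.8 to 60.5 and 33.0 to 54.6 CPM for 6 nephron progenitor markers, 40.5 to 48.9 and 45.4 to 55.5 CPM for 7 endothelial, 22.7 to 55.2 and 30.3 to 61.4 CPM for 10 leukocyte and 167 to 334 and 201 to 319 CPM for 7 erythroid markers. The part of these markers in the results below was not tested. In bulk samples fewer cells of a type and less RNA per cell cannot be told apart.

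At high adhesion 19 of the 36 genes rose and 1, Nupr1, fell, by the quasi-likelihood test of edgeR fitted with a litter term (threshold 0.05 on the adjusted p). Over all 14834 tested genes 9.55% passed, of which the higher made up 4.71% and the lower 4.83% of those tested. Among the 10202 genes averaging at least 5 CPM, which included 33 of the 36, 5.91% rose and 6.22% fell. The changes were small: the 20 called genes had a median absolute log2 fold change of 0.27, and 2 of them passed 1.5-fold. The median log2 fold change was 0.24 over the 36 genes and -0.001 over all tested genes, and 34 of 36 had a value above 0, against 49.6% of all tested genes. In 23 of 36 the high adhesion library was above its low adhesion partner in 3 of 3 litters (21.1% of all tested genes), and in 2 it was below in 3 of 3 (20.2%). The 3 high adhesion libraries all lay above the 3 low adhesion ones in 10 of 36 (7.82% of all tested genes) and all below in 1 (7.60%).

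These calls rest on the comparison within litters. Without the replicate block edgeR called 0 of the 36 (0.243% of all tested genes, with 0.135% higher and 0.108% lower), and 14 of the 36 had an unadjusted p under 0.05. The share of all genes with an unadjusted p under 0.05 was not counted for that fit. DESeq2, also with litter, called 12 higher (1.77% of its genes) and 1 lower (1.71%), where 3.48% of its genes passed. With limma-voom 19 were higher (4.74% of genes) and 1 lower (4.81%), where 9.55% passed. Without litter 3, 11 were higher (2.84% of the genes tested in that fit), without litter 1, 17 (3.37%), and without litter 2, 23 (4.87%). Nupr1 was lower in each of these fits, where 3.21%, 3.29% and 5.43% of genes were lower. The sign of the fold change of the 20 called genes was the same in each of these settings.

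**Figure D1:**
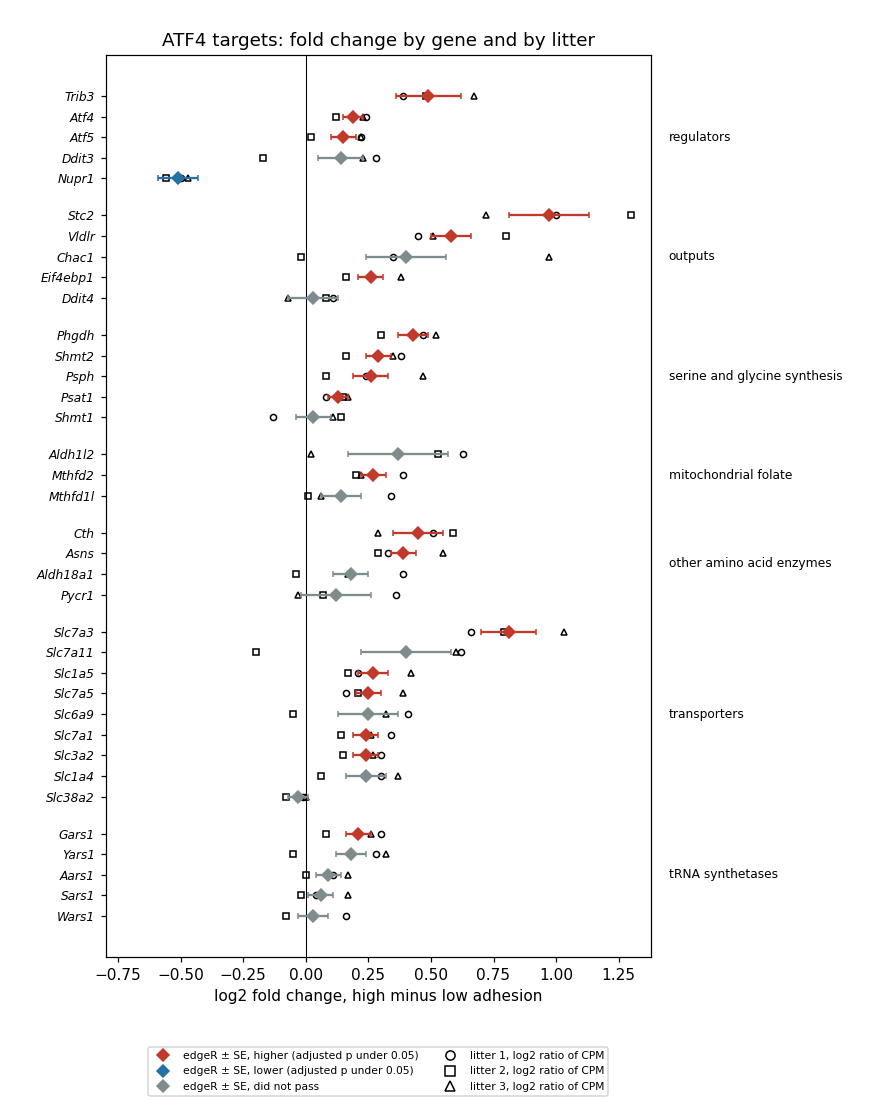
Log2 fold change (high minus low adhesion, x axis) of each of the 36 genes, grouped by role down the page. Diamonds are edgeR estimates with litter in the model ± standard error, and open symbols are the log2 ratios of CPM in each of 3 litters. Most estimates lie right of 0, with Stc2 farthest at 0.97 and Nupr1 alone passing on the left at -0.51.

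Among the regulators, Atf4 (ENSMUSG00000042406), the transcription factor at the head of the programme, had 519, 397 and 433 CPM in high adhesion libraries of litters 1, 2 and 3, against 440, 364 and 370 CPM in the low adhesion ones. The groups overlapped, because the low adhesion library of litter 1 was above the high adhesion libraries of litters 2 and 3, but within each litter the high adhesion library was the higher. The log2 fold change was 0.19 ± 0.04 (standard error, n = 3 each, edgeR adjusted p = 0.00138). Atf4 was also the most abundant of the 36 per length, at 191 CPM per kb of exon at high and 166 at low adhesion. It did not pass without litter 3 (edgeR adjusted p = 0.0652).

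Atf5, a related factor that is translated by the same mechanism, had 168, 140 and 144 CPM at high and 145, 138 and 124 CPM at low adhesion, with 1.11-fold more at high adhesion (edgeR adjusted p = 0.0427). That call was narrow, and the gene did not pass in DESeq2 (adjusted p = 0.361), without litter 1 (edgeR adjusted p = 0.269) or without litter 3 (0.369). Trib3, a pseudokinase that feeds back on ATF4, had 9.94, 5.08 and 6.96 CPM at high and 7.60, 3.64 and 4.38 CPM at low adhesion, a log2 fold change of 0.49 ± 0.13 (edgeR adjusted p = 0.0150). It too was lost in DESeq2 (adjusted p = 0.446) and without litter 3 (edgeR adjusted p = 0.154). Litter 1 gave the highest value of Trib3 in both groups.

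Ddit3, which encodes the stress factor CHOP, did not pass, with 21.4, 10.96 and 15.8 CPM at high and 17.7, 12.3 and 13.5 CPM at low adhesion (log2 fold change 0.14 ± 0.09, edgeR adjusted p = 0.436). It was higher in litters 1 and 3 and lower in litter 2. Nupr1 (ENSMUSG00000030717), a small stress-responsive chromatin protein, was the gene that fell. It had 16.2, 12.5 and 13.03 CPM at high and 22.9, 18.5 and 18.0 CPM at low adhesion, so that the groups did not overlap. Its log2 fold change was -0.51 ± 0.08 (standard error, n = 3 each, edgeR adjusted p = 0.000123), with litter values of -0.50, -0.56 and -0.47.

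Of 5 further output genes 3 rose. Stc2 (ENSMUSG00000020303), a secreted glycoprotein, had the largest fold change of the 36, with 7.28, 4.29 and 5.11 CPM at high against 3.65, 1.74 and 3.09 CPM at low adhesion, from 93, 54 and 69 counts against 48, 23 and 41. Every high adhesion library exceeded every low adhesion one, and the fold change was 1.95 (log2 0.97 ± 0.16, n = 3 each, edgeR adjusted p = 0.000155). Vldlr (ENSMUSG00000024924), a lipoprotein receptor, had 29.3, 31.6 and 25.6 CPM at high against 21.4, 18.2 and 18.0 CPM at low adhesion, again without overlap, at a log2 fold change of 0.58 ± 0.08 (edgeR adjusted p = 1.38e-05). Litter 2 held the largest ratio for both genes (log2 1.30 and 0.80).

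Eif4ebp1, an inhibitor of cap-dependent translation that mTORC1 phosphorylates, had 213, 161 and 201 CPM at high and 178, 144 and 154 CPM at low adhesion, a 1.20-fold rise (edgeR adjusted p = 0.000247). Per length it came next to Atf4, at 87.2 CPM per kb of exon at high and 72.3 at low adhesion. Chac1, which degrades glutathione, did not pass, with 8.53, 3.97 and 5.03 CPM at high and 6.69, 4.02 and 2.56 CPM at low adhesion (edgeR adjusted p = 0.115), but did without litter 2 (edgeR adjusted p = 0.0341). Ddit4, an inhibitor of mTORC1, ranged from 11.3 to 12.8 CPM at high and from 10.7 to 12.7 CPM at low adhesion (log2 fold change 0.03 ± 0.10, edgeR adjusted p = 0.905).

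In serine and glycine synthesis 4 of 5 genes rose. Phgdh (ENSMUSG00000053398), the first and committed enzyme, had 79.7, 63.7 and 69.2 CPM at high and 57.6, 51.7 and 48.1 CPM at low adhesion, without overlap. Its log2 fold change of 0.43 ± 0.06 had the lowest adjusted p of the 36 (edgeR adjusted p = 9.51e-06). The deposited counts of Phgdh were fractional in 5 of 6 libraries, and the part of this in the result was not tested. Psat1, the transaminase that follows it, was more abundant per length (64.3 CPM per kb of exon at high and 58.7 at low adhesion, against 28.5 and 21.1 for Phgdh). Psat1 had 275, 229 and 317 CPM at high and 261, 207 and 281 CPM at low adhesion. Its 1.09-fold difference passed narrowly (edgeR adjusted p = 0.0482) and did not in DESeq2 (adjusted p = 0.324), without litter 2 (edgeR adjusted p = 0.0960) or without litter 3 (0.403).

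Psph, the phosphatase that releases serine, had 44.5, 31.8 and 39.2 CPM at high and 37.8, 30.1 and 28.4 CPM at low adhesion (1.20-fold, edgeR adjusted p = 0.0183), and was lost in DESeq2 (adjusted p = 0.347) and without litter 3 (edgeR adjusted p = 0.382). The serine hydroxymethyltransferases, which turn serine into glycine, act in separate compartments. Shmt2 (ENSMUSG00000025403), the mitochondrial enzyme, had 135, 113 and 119 CPM at high and 104, 101 and 93.7 CPM at low adhesion, with a log2 fold change of 0.29 ± 0.05 (edgeR adjusted p = 0.000165) and no overlap. Shmt1, the cytosolic enzyme, had 40.1, 39.7 and 42.6 CPM at high and 44.0, 36.1 and 39.4 CPM at low adhesion, with a log2 fold change of 0.03 ± 0.07 (edgeR adjusted p = 0.848). The difference between these fold changes was not tested. Per kb of exon Shmt2 stood at 39.4 CPM at high and 32.0 at low adhesion, and Shmt1 at 10.5 and 10.3.

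Of the mitochondrial folate enzymes downstream of Shmt2, Mthfd2 rose, with 163, 135 and 132 CPM at high and 124, 117 and 114 CPM at low adhesion. All 3 high adhesion libraries lay above the low adhesion ones (1.21-fold, edgeR adjusted p = 0.000287). Mthfd1l, which releases formate, spanned 22.8 to 31.2 CPM at high and 21.8 to 26.2 CPM at low adhesion (edgeR adjusted p = 0.294). Aldh1l2, which oxidises formyl-folate, was rare, with 30, 40 and 33 counts at high and 20, 29 and 32 counts at low adhesion (log2 fold change 0.37 ± 0.20, edgeR adjusted p = 0.306).

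**Figure D2:**
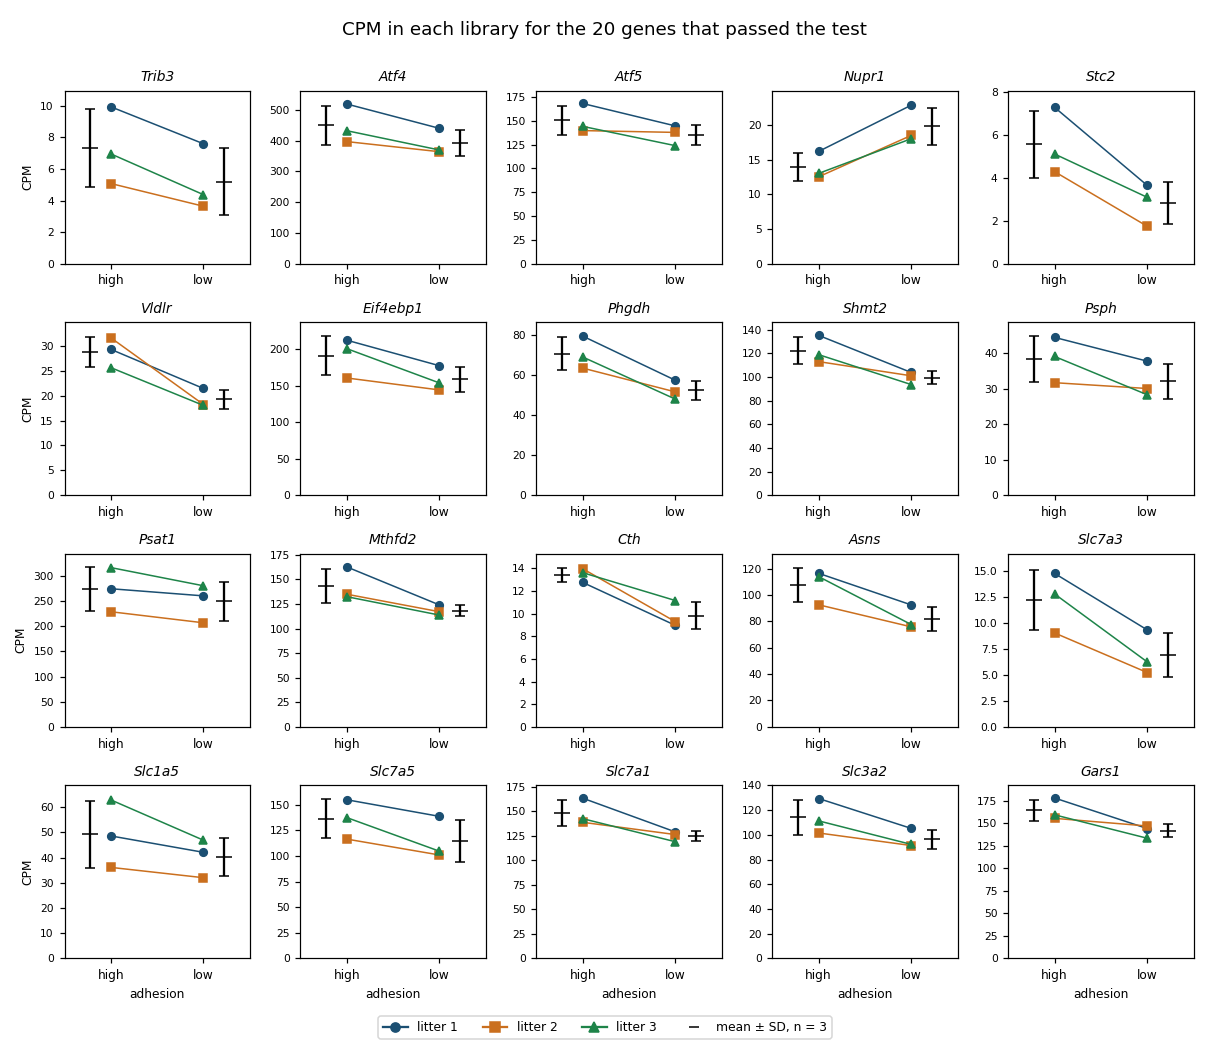
CPM (y axis, from 0) at high and low adhesion for the 20 genes that passed, 1 panel a gene. Lines join the libraries of a litter and bars give mean ± SD over 3 libraries. The lines slope down from high to low adhesion in 19 panels and up for Nupr1. The ranges of mean ± SD of the groups overlap in 9 panels and are apart in 11, a count not made over all tested genes. The SD is taken across litters, so it includes differences between litters that the litter term of the test takes out.

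Of 4 enzyme genes for other amino acids 2 rose. Asns (ENSMUSG00000029752), asparagine synthetase and a standard readout of ATF4, had 117, 92.6 and 114 CPM at high and 92.5, 75.9 and 77.6 CPM at low adhesion. The lowest high adhesion library was barely above the highest low adhesion one, and the log2 fold change was 0.39 ± 0.05 (edgeR adjusted p = 1.42e-05). Cth, which makes cysteine from cystathionine, had 12.8, 14.0 and 13.6 CPM at high and 8.97, 9.29 and 11.2 CPM at low adhesion, a 1.37-fold rise without overlap (edgeR adjusted p = 0.00363) that DESeq2 did not call (adjusted p = 0.224). The proline synthesis genes Aldh18a1 (30.7 to 47.5 CPM at high, 29.9 to 36.3 CPM at low adhesion) and Pycr1 (5.03 to 6.59 and 4.33 to 6.30 CPM) did not pass, at edgeR adjusted p of 0.128 and 0.684. Without litter 2 Aldh18a1 did (edgeR adjusted p = 0.0128).

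Of 9 amino acid transporter genes 5 rose and none fell. Slc7a3 (ENSMUSG00000031297), a carrier of the cationic amino acids arginine and lysine, had 14.8, 9.05 and 12.8 CPM at high and 9.35, 5.24 and 6.26 CPM at low adhesion. Its groups overlapped only through litter 2 at high and litter 1 at low adhesion, and the log2 fold change was 0.81 ± 0.11 (edgeR adjusted p = 1.38e-05), second to Stc2 among the 36. Its more abundant relative Slc7a1, the general cationic carrier, had 163, 139 and 142 CPM at high and 129, 126 and 119 CPM at low adhesion, a fold of 1.18 without overlap (edgeR adjusted p = 0.000782).

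Slc7a5 and Slc3a2 encode the light and heavy chains of a transporter for leucine and other large neutral amino acids, and both rose. Slc7a5 had 155, 116 and 137 CPM at high and 139, 101 and 105 CPM at low adhesion (1.19-fold, edgeR adjusted p = 0.00132), and Slc3a2 had 129, 102 and 111 CPM at high and 105, 91.3 and 92.3 CPM at low adhesion (1.18-fold, edgeR adjusted p = 0.00135). In log2 terms these were 0.25 ± 0.05 and 0.24 ± 0.05. Slc7a5, whose counts were fractional in 5 of 6 libraries, did not pass without litter 3 (edgeR adjusted p = 0.0944). Slc7a11, the cystine carrier that uses the same heavy chain, was the rarest of the 36 per length of annotated exon. By mean CPM over the 6 libraries Aldh1l2 was lower, at 2.35 against 3.46 for Slc7a11. Slc7a11 did not pass, with 67, 30 and 57 counts at high and 45, 36 and 37 counts at low adhesion (edgeR adjusted p = 0.179). It passed without litter 2 (edgeR adjusted p = 0.0442).

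Slc1a5, a glutamine carrier, had 48.6, 36.1 and 62.9 CPM at high and 42.1, 32.0 and 46.9 CPM at low adhesion (1.21-fold, edgeR adjusted p = 0.00531), with litter 3 the highest in both groups. DESeq2 did not call it (adjusted p = 0.176), nor did edgeR without litter 3 (adjusted p = 0.231). Its relative Slc1a4, for small neutral amino acids such as serine, just missed the threshold (edgeR adjusted p = 0.0532), although its high adhesion libraries (21.6 to 24.3 CPM) all lay above the low adhesion ones (18.8 to 20.7 CPM). It passed without litter 2 (edgeR adjusted p = 0.0167). The glycine carrier Slc6a9 (edgeR adjusted p = 0.211) did not pass. Slc38a2, a glutamine carrier that responds to amino acid shortage, had a log2 fold change of -0.03 ± 0.04 (edgeR adjusted p = 0.711), with 239.5, 230.5 and 233 CPM at high and 242, 243 and 233 CPM at low adhesion. The groups overlapped, with 2903 to 3207 counts per library.

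The 5 cytosolic aminoacyl-tRNA synthetases, which charge transfer RNA, moved least of the role groups, with a median log2 fold change of 0.09. Only Gars1, for glycine, rose, with 178, 156 and 160 CPM at high and 144, 147 and 134 CPM at low adhesion (1.16-fold, edgeR adjusted p = 0.00304). It was lost in DESeq2 (adjusted p = 0.0525), without litter 1 (edgeR adjusted p = 0.0675) and without litter 3 (0.0504). Yars1 for tyrosine missed the threshold (log2 fold change 0.18 ± 0.06, edgeR adjusted p = 0.0660) and passed without litter 2 (edgeR adjusted p = 0.000555). Aars1, Sars1 and Wars1, for alanine, serine and tryptophan, had log2 fold changes of 0.09, 0.06 and 0.03. Of 15 other cytosolic synthetase genes Nars1 for asparagine rose (log2 fold change 0.32 ± 0.04, edgeR adjusted p = 9.57e-06) and none fell. Of 17 mitochondrial ones Mars2 rose. With so few genes these counts are near the background, as 4.71% of all tested genes rose and 4.83% fell.

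**Figure D3:**
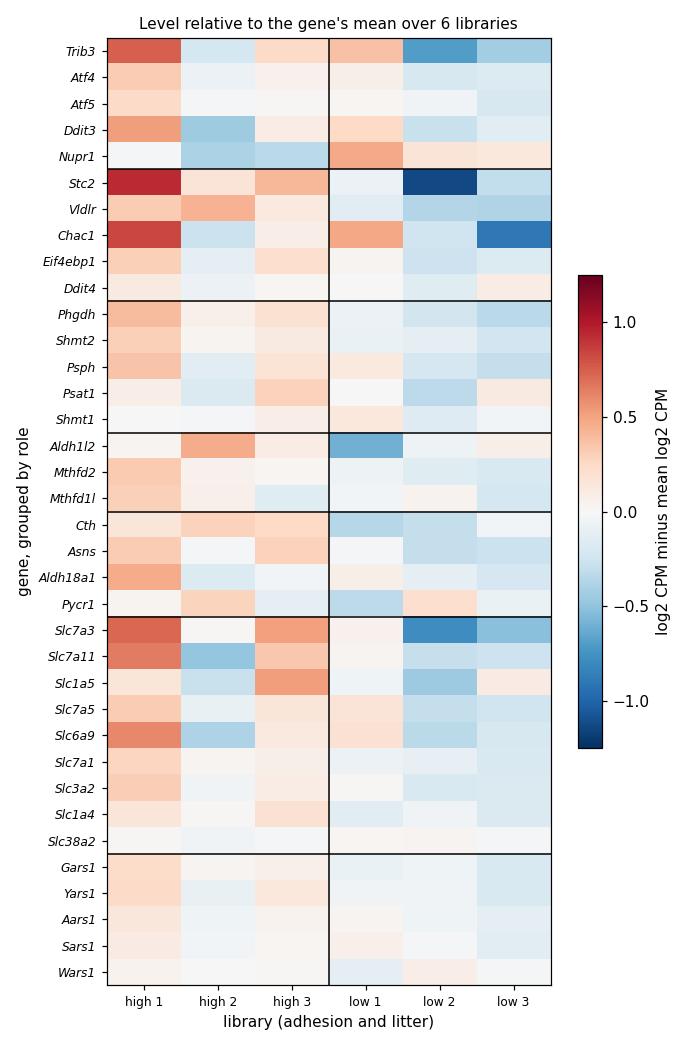
Log2 CPM of each gene minus its mean over the 6 libraries (colour), with high adhesion libraries left of the line and low adhesion ones right of it. Rows are grouped by role. The high adhesion library of litter 1 is the reddest column, and the low adhesion libraries of litters 2 and 3 are the bluest.

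The list also varied between litters. In edgeR's test of the litter terms 20 of 36 genes differed between litters, against 17.9% of all tested genes. Litter 1 had the highest mean of its libraries in 29 of 36 (5639 of all 14834 tested genes) and litter 2 the lowest in 22 (5933 of all 14834). The litter means of Atf4 were 480, 381 and 401 CPM, those of Ddit3 19.5, 11.6 and 14.7 CPM and those of Trib3 8.77, 4.36 and 5.67 CPM, for litters 1, 2 and 3. In 4 of the 36 litter 3 was the highest, among them Psat1 and Slc1a5 at 299 and 54.9 CPM, and in 3 litter 2 was. All 5 regulators and none of the 5 tRNA synthetases differed between litters. Without litter 1, 3 of the 36 differed between the remaining litters, where 9.92% of the genes tested did, and DESeq2 called 6 of the 36 with all litters, where 6.20% of its genes passed. The low adhesion library of litter 1 also had the highest share of mitochondrially encoded counts, 2.32%, against 1.69% to 2.1% in the other 5 libraries, and its part in the litter difference was not tested.

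Within litters the ratios were lowest in litter 2. The median log2 ratio of high to low adhesion over the 36 genes was 0.30 in litter 1, 0.10 in litter 2 and 0.27 in litter 3, where all tested genes had 0.02, -0.02 and 0.00. Litter 2 gave the lowest ratio of the 3 litters for 25 of 36 genes, or 69.4%, against 39.9% of all tested genes above 0 in every library. With 1 pair a litter, the difference between litters in response was not tested.

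Genes upstream and beside ATF4 were counted from lists of general knowledge, in which some genes appear more than once. Of 11 genes for eIF2 kinases and the eIF2 phosphatase 1 rose and 1 fell. With so few genes this is near the background, as 4.71% of all tested genes rose and 4.83% fell. The riser was Ppp1r15a, the ATF4-inducible subunit that directs eIF2 dephosphorylation, with 211, 123 and 156 CPM at high and 154, 106 and 109 CPM at low adhesion (log2 fold change 0.40 ± 0.05, edgeR adjusted p = 4.48e-06). Eif2ak2, the kinase of double-stranded RNA and an interferon-induced gene, fell to 30.2, 17.8 and 28.2 CPM at high, against 47.9, 21.1 and 41.4 CPM at low adhesion (edgeR adjusted p = 3.06e-05). The kinases for unfolded protein and amino acid shortage, Eif2ak3 and Eif2ak4, had log2 fold changes of -0.20 and -0.13 (edgeR adjusted p = 0.291 and 0.339). None of 10 genes for eIF2 and eIF2B subunits passed in edgeR, and none had an unadjusted p under 0.05 (3250 of all 14834 tested genes did).

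Of 11 partner and related bZIP factors Atf3 rose (20.5 ± 1.13 CPM at high and 15.0 ± 1.35 CPM at low adhesion, SD, n = 3 each) and Cebpb fell (464 ± 123 and 553 ± 113 CPM). The log2 fold changes were 0.45 and -0.27 (edgeR adjusted p = 0.000589 and 5.34e-05), and DESeq2 did not call Atf3 (adjusted p = 0.0784). Of 31 tested ATF4-responsive genes outside the 36, 7 rose and none fell, with a median log2 fold change of 0.08. Over all tested genes 4.71% rose and 4.83% fell. The 3 of lowest adjusted p were Gadd45a (log2 fold change 0.49), Pmaip1 (0.66), both also known as p53 targets, and Nars1 (0.32). DESeq2 called these 3 and none of the others that rose.

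Across 8 lists of neighbouring pathways 7 of 119 genes passed, or 5.88%, against 9.55% of all tested genes, which with so few genes is near the background. Of 21 endoplasmic reticulum chaperones and targets of the XBP1 and ATF6 arms none rose and 2 fell, Calr (log2 fold change -0.21) and Hsp90b1 (-0.18), with a median of -0.06. None of 13 mitochondrial chaperone and protease genes and none of 21 genes of mTORC1 and its amino acid sensors passed in edgeR, with 1 and 2 at an unadjusted p under 0.05. Of all 14834 tested genes 3250 had an unadjusted p under 0.05 in edgeR. Cytosolic folate and nucleotide genes had 1 lower of 13, Tyms of thymidylate synthesis (log2 fold change -0.22, edgeR adjusted p = 0.00534). Glycine cleavage and mitochondrial carriers had 1 higher of 9, Gcsh (0.19). Transsulfuration, glutathione and methionine genes had none of 9 (3 at an unadjusted p under 0.05 in edgeR). Of 14 other enzymes of proline, glutamine, aspartate and ornithine 2 rose, Odc1 of polyamine synthesis (0.17) and Gpt2 (0.41), and of 19 other amino acid transporters 1 fell, the glutamate carrier Slc1a3 (-0.32). The role groups of the 36 had medians of 0.09 to 0.40. The 36 and the lists were chosen with earlier results of these data known, so nothing is concluded from this difference. DESeq2 called Ppp1r15a, Eif2ak2, Cebpb, Gadd45a, Pmaip1, Nars1, Calr and Hsp90b1 and not Tyms, Gcsh, Odc1, Gpt2, Slc1a3 or Mars2.

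**Figure D4:**
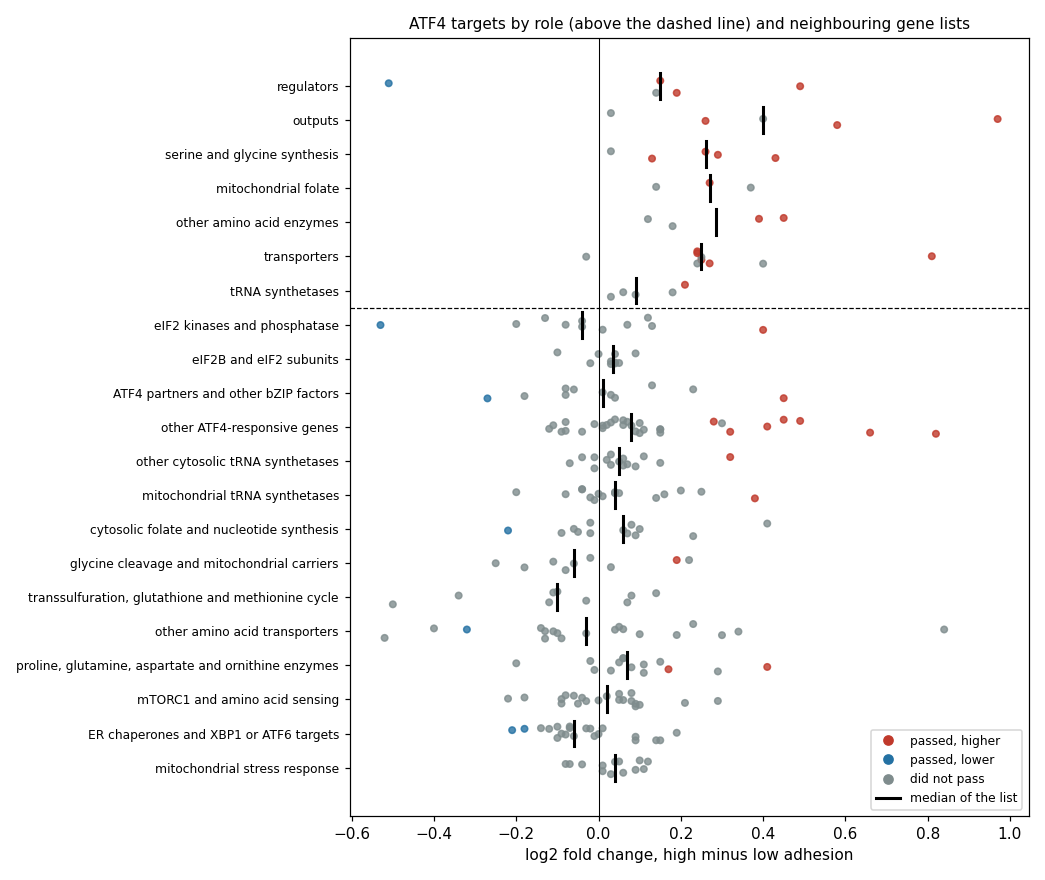
Log2 fold change (high minus low adhesion, x axis) of each tested gene, by role for the 36 genes above the dashed line and by neighbouring list below it. Colours mark genes that passed in edgeR and black bars are list medians, which run from 0.09 to 0.40 above the line and from -0.10 to 0.08 below it.

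Promoters were read for the letters of the composite C/EBP and ATF4 element, because the genes were grouped as ATF4 targets. The letters TGATGNAA, or TTNCATCA where the element lies on the other strand, were sought in the 250 bases before each start in RefSeq (build GRCm38.p6), with N any base. Of the 36 genes 29 had an entry, and Aldh1l2, Slc7a3, Slc7a5, Slc1a5, Wars1, Eif4ebp1 and Cth had none. The letters stood before at least 1 start in 8 of the 29 genes (27.6%) and in 1056 of 27025 genes in the table (3.91%). They were found in 3 of 14 matched genes that rose, in Nupr1, which fell, and in 4 of 14 that did not pass. A match in letters is not a bound site. The stretches below, of 90 bases each, come from genes that rose (Vldlr, Asns, Gars1), fell (Nupr1) and did not pass (Chac1, Slc7a11). The match is in capitals, and each is read along the gene's own strand. All letters but N were fixed by the search, so their likeness between genes is no result.
Vldlr, chr19:27216779-27216868, plus strand: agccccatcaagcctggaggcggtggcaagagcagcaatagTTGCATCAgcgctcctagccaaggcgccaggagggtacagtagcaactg
Asns, chr6:7693210-7693299, minus strand: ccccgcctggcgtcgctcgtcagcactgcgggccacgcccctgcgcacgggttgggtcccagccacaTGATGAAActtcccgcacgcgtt
Gars1, chr6:55037911-55038000, plus strand: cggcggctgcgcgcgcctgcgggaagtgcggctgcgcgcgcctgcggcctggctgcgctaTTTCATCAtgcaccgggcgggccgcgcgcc
Nupr1, chr7:126625532-126625621, minus strand: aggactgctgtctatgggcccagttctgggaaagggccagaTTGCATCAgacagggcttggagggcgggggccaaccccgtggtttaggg
Chac1, chr2:119351008-119351097, plus strand: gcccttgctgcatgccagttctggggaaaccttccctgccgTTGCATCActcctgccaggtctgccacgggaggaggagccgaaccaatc
Slc7a11, chr3:50443614-50443703, minus strand: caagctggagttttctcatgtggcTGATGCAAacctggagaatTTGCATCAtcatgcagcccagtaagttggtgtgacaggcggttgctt

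Vldlr, Nupr1 and Chac1 carried the same 8 letters in the same orientation, 200, 110 and 193 bases before a start. Their log2 fold changes were 0.58, -0.51 and 0.40. Another start of Vldlr had no match in its window. Slc7a11 carried 2 copies in opposite orientation and did not pass. Phgdh, Shmt2 and Mthfd2, which rose, had no match in this window, which says only that these letters are absent from it.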

How the data were processed

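RNA-seq of polyA RNA from 6 libraries was analysed from 1 table. The submitters' processing notes list fastp 0.24.0, STAR 2.7.11 and featureCounts of Subread 2.1.1 and build GRCm39. Annotation release, strand setting and the treatment of reads matching several places were not given in those notes. The deposited values are the authors' estimated counts per gene, unscaled and partly fractional (in at least 1 library for 15 of the 36 genes), and CPM, which are printed as deposited. Reads of antisense or overlapping partners may therefore be mixed.

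Counts were rounded and fitted in edgeR 4.0.16 (filterByExpr, TMM factors 0.988 to 1.01, robust quasi-likelihood) with a litter block, and the adhesion term was tested two-sided, adjusted by Benjamini-Hochberg over 14834 genes at 0.05. Each standard error is the absolute log2 fold change over the square root of the F statistic. The litter pairing comes from the series' design, and libraries of the same litter deviated together from their group means (correlations across genes of 0.58, 0.58 and 0.36). Alternatives used DESeq2 1.42.0, limma 3.58.1, other scalings, filters and rounding, no litter term and each litter left out. The method was also run on counts simulated from its own fitted model. Such a run cannot show how the calls fare where the data depart from that model. Exon length was the union of all annotated exons of a gene in GENCODE M21, matched by gene identifier. It can exceed the length of the transcripts expressed, so that orders per length are approximate. Members and lists were chosen with earlier results of these data known. The text gives the called members in full, Atf4, and up to 3 called genes of each other list. A second Ddit3 entry held at most 2.5 counts and was not used.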

Additional observations from a re-analysis of the deposited data

How the results depend on the processing

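Without the replicate block 36 genes passed in edgeR in place of 1416, with 0 members higher and 0 lower in place of 19 and 1, and a member median of 0.242 in place of 0.243. DESeq2 with litter in the model called 406 genes, 12 members higher and 6 members between litters in place of 20. Leaving out each litter in turn gave 908 to 1553 genes, 11 to 23 members higher and 3 to 18 members between litters, and the median ran from 0.191 to 0.278. The share of all genes that differed between litters was counted only for the fit without litter 1 (9.92%) among those fits. In those fits Shmt1 ran from -0.03 to 0.13 and Wars1 from -0.02 to 0.08, crossing 0 without passing. With RLE size factors, library totals, limma-voom, counts rounded down or only genes of at least 5 CPM, 19 members rose and 1 fell. Stc2, Aldh1l2 and Slc7a11 were below 5 CPM and were not tested in the last of these. Without a filter on low counts, where 40100 genes were tested, 17 rose and Atf5 and Psat1 were lost (edgeR adjusted p = 0.0709 and 0.118). Slc1a4 passed among genes of at least 5 CPM (edgeR adjusted p = 0.0388). The promoter letters were in 37.9% of matched members and 4.51% of genes over all 300 bases, and in 20.7% and 0.918% as TGATGCAA alone. The cause of these shifts was not tested. Aldh1l2, Slc7a11, Stc2, Chac1, Pycr1 and Trib3 had 20 to 127 counts per library, and the effect of depth on their calls was not tested.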

Other observations

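Chac2, a relative of Chac1 that also degrades glutathione, was singled out after its values were seen. It had 2.62, 3.10 and 3.11 CPM at high and 4.03, 4.21 and 4.26 CPM at low adhesion. All high adhesion libraries lay below all low adhesion ones, as in 7.60% of all tested genes. Its log2 fold change of -0.50 did not pass (edgeR adjusted p = 0.0554). Nor did it in DESeq2 (adjusted p = 0.736) or without the replicate block (edgeR adjusted p = 0.338). Chac1 had a log2 fold change of 0.40 in the same libraries. The difference between the genes was not tested.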
